A study of Arabidopsis thaliana with 2 samples.

Results

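The vacuolar processing enzyme (VPE) genes of Arabidopsis thaliana were followed in shoots grown with an auxin transport inhibitor. The genes were taken by name, as those whose symbol in the array's annotation ends in -VPE. This gave 4 genes, BETA-VPE (AT1G62710), GAMMA-VPE (AT4G32940), ALPHA-VPE (AT2G25940) and DELTA-VPE (AT3G20210), out of 13356 genes named on the array. Each was read by 1 probe set assigned to that gene alone. BETA-VPE and GAMMA-VPE were chosen by their NPA and DMSO control signals in these same arrays, so their values are a description and carry no test.

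The NPA plants, ecotype Col-0, grew on agar medium with N-(1-naphthyl) phthalamic acid, an inhibitor of polar auxin transport, dissolved in DMSO. The DMSO control plants, also Col-0, received the same volume of the solvent alone. The labels put NPA at 10 uM in the treated sample's own notes but at 10 mM in the growth protocol, so the dose is not settled here. Both groups were stratified at 4 C for at least 2 days, then grown at about 20 C with 16 h of light. Whole shoots were collected at about 2 weeks, with about 6 rosette leaves and a labelled growth stage of 1.04. Each group was 1 RNA sample on 1 Affymetrix ATH1 array, so differences were not checked against replicates, and precision is limited by having 2 arrays. How many plants made up a sample is not given in the sources used here.

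VPEs are cysteine proteases of the legumain family that cut next to asparagine and can also cut next to aspartate. They lie in the vacuole, where they mature other vacuolar proteins and also activate themselves by self-cleavage at acidic pH. In Arabidopsis, BETA-VPE is known as the seed type, which processes storage proteins, ALPHA-VPE and GAMMA-VPE as the vegetative type, known from senescing and dying cells, and DELTA-VPE from the seed coat. VPE activity resembles that of animal caspase-1 and is known for vacuole collapse in virus-induced cell death.

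BETA-VPE, the seed-type enzyme, and GAMMA-VPE, the main vegetative one, both had higher signals in the NPA array than in the DMSO control array. BETA-VPE had a signal of 201 with NPA, against 43.5 in the DMSO control. The NPA signal was high and the control signal low, only 1.54 times the array's floor. The floor is the array's 40th percentile, 27.9 with NPA and 28.3 in the DMSO control, below which a signal is treated as not measured. The log2 ratio of NPA over DMSO control was 2.21, a 4.62-fold difference.

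GAMMA-VPE had a signal of 1745 with NPA, against 582 in the DMSO control. Both signals lay far above the floor, at 62.6 times the floor with NPA and 20.6 times in the DMSO control. The probe set was brighter than 99.1% of probe sets on the NPA array and 95.4% on the control array. Its log2 ratio was 1.58, a 3.00-fold difference.

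ALPHA-VPE, the other vegetative enzyme, had a signal of 8.90 with NPA and 18.1 in the DMSO control. DELTA-VPE, the seed coat enzyme, had 13.2 with NPA and 18.4 in the DMSO control. All of these signals lay below the floor of their array, so neither gene has a ratio here, and a level below the floor is not shown to be absent. Signals of different probe sets depend on the probes and were not compared between the 4 genes.

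**Figure D1:**
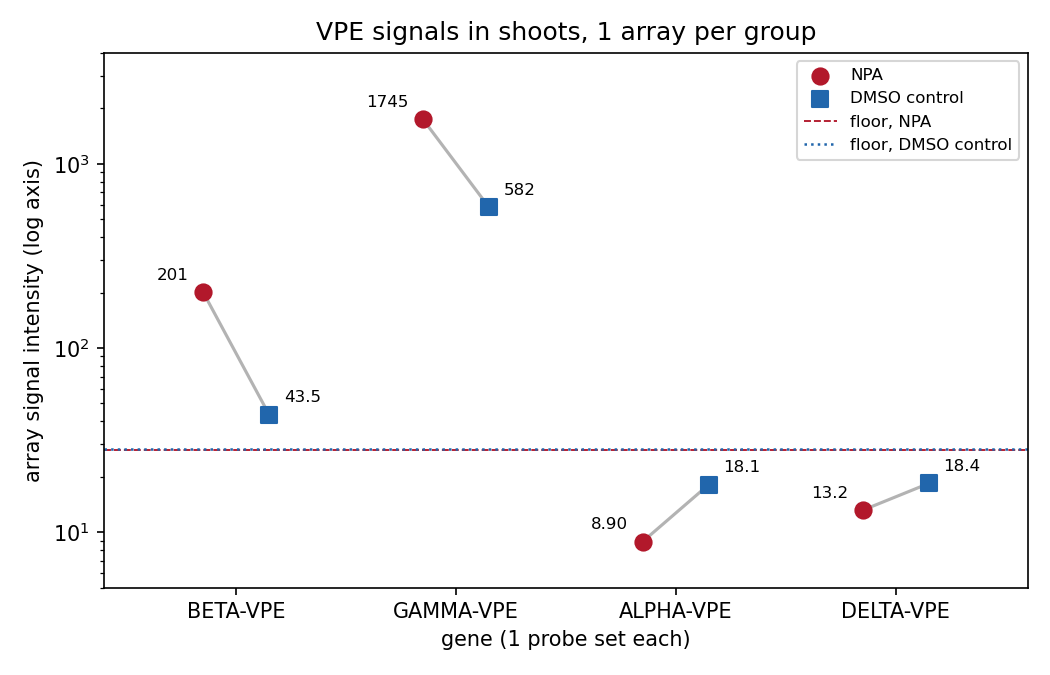
Array signal intensity, on a log axis, of the 4 VPE genes in the NPA array (circles) and the DMSO control array (squares), with dashed and dotted lines at the floors of 27.9 and 28.3. BETA-VPE and GAMMA-VPE are higher with NPA and above both floors, while ALPHA-VPE and DELTA-VPE are below the floor in both arrays.

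Both VPE genes above the floor passed the size rule of 2-fold used here in place of a test. Of the 7753 genes that exceeded the floor of 1 or both arrays, 3.75% had at least 2-fold more signal with NPA and 2.13% had a signal lower by that factor or more. This contrast chose the genes, so the count of 2 and the ranks that follow carry no further reading. Of the 6809 genes above the floor in both arrays, ranked from the highest ratio, BETA-VPE was number 26 and GAMMA-VPE number 67. The log2 ratios of these 6809 genes had a median of -0.02 and an SD of 0.54.

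With 1 array per group, the spread of other genes at a like signal gives the only scale for these ratios. The local spread is a robust SD of the log2 ratio over the 500 genes nearest in mean signal, among genes above the floor in both arrays. It holds true differences between the plants as well as measurement error. It was 0.44 around BETA-VPE and 0.53 around GAMMA-VPE. The log2 ratio was 4.97 times this spread for BETA-VPE and 2.99 times for GAMMA-VPE. Since this contrast chose both genes, these multiples are a description only. The match is on mean signal, so the low control signal of BETA-VPE was not matched by itself. The log2 ratio of BETA-VPE exceeded that of GAMMA-VPE by 0.62. This gap was 0.13 when the floor was added to both signals, which lowers ratios of dim genes most. With the floor at the 55th percentile it was at least 0.34, a bound, since the control signal of BETA-VPE then lay below the floor. The gap was 0.40 after lowess centring and 0.43 after quantile normalization, where the log2 ratio of GAMMA-VPE was 1.76 and 1.73.

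AT1G08750 was listed by locus with the legumain family, outside the VPE genes. Its signal was 160 with NPA and 170 in the DMSO control. The log2 ratio was -0.09, within the local spread of 0.50.

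**Figure D2:**
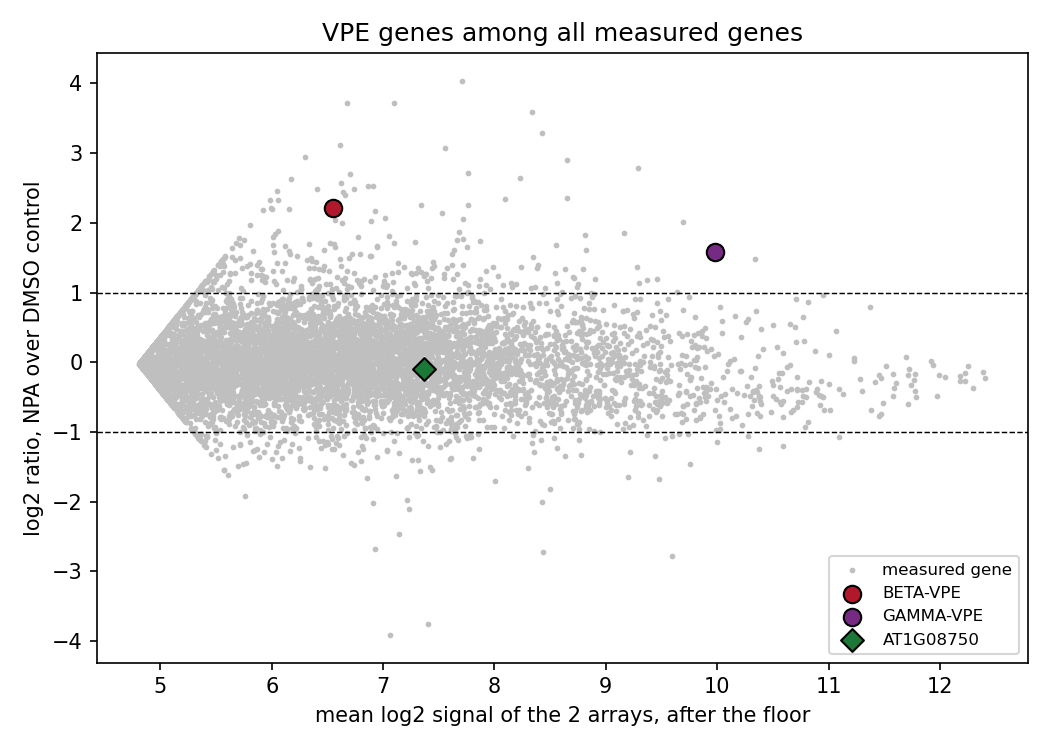
Log2 ratio of NPA over DMSO control against the mean log2 signal of both arrays, after the floor, for the 7753 measured genes (grey points), with dashed lines at a 2-fold difference. BETA-VPE at 2.21 and GAMMA-VPE at 1.58 lie above the upper line, and AT1G08750 at -0.09 lies near 0.

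Genes whose signals came nearest to those of a VPE gene on both arrays were found by the Euclidean distance of their log2 signals. With 2 arrays this measure rests on 2 values per gene and on the brightness of the probes, and a short distance fixes a like ratio by construction, so the ratios given here are a description only. For BETA-VPE these were FMO, a flavin monooxygenase gene, AT2G29660 and UF3GT, a flavonoid glycosyltransferase gene, at distances of 0.12, 0.19 and 0.21. FMO had a signal of 193 with NPA and 47.0 in the DMSO control. AT2G29660 had 199 with NPA and 49.7 in the DMSO control. Their log2 ratios were 2.04 and 2.00, and that of UF3GT 2.40.

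For GAMMA-VPE the nearest genes were farther off, at distances of 0.50 for CCL, 0.51 for BCAT4 and 0.56 for ATG8F. BCAT4, an aminotransferase gene of methionine-derived glucosinolate synthesis, had a signal of 2160 with NPA and 773 in the DMSO control, a 2.79-fold difference. CCL had a log2 ratio of 2.01. ATG8F, which encodes a ubiquitin-like protein of the autophagosome membrane, had 1375 with NPA and 791 in the DMSO control, a log2 ratio of 0.80.

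Papain-like cysteine proteases share the plant vacuole with the VPEs. This list and the lists below were chosen with earlier results of these data known, so their counts and medians are a description only. Of 21 loci listed, 10 were named on the array and 7 were above the floor in at least 1 array. Of these 7, 2 passed 2-fold in the higher direction and 0 in the lower one, beside 3.75% and 2.13% of all measured genes, and 6 of the 7 had a log2 ratio above 0, or 5 after median centring. The count past 2-fold in the higher direction was 4 after lowess centring, 3 after quantile normalization and 1 when the floor was added to both signals. Raising the floor to the 55th percentile left at least 1, since the ratio of AT1G02300 was then only a lower bound. Without a floor, 3 of 10 loci were past 2-fold in the higher direction and 1 in the lower. The median log2 ratio of the 7 was 0.93, beside -0.03 over all measured genes. With the floor at the 25th percentile, where dimmer loci enter, the list's median was 0.49.

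AT4G01610 had a signal of 791 with NPA and 259 in the DMSO control, a 3.05-fold difference. AT1G02300 had 77.1 with NPA and 29.1 in the DMSO control, a 2.64-fold difference from a control signal just above the floor. Once the floor was raised to the 55th percentile, the control signal of AT1G02300 lay below it. The log2 value of 0.54 found there is a lower bound, so it does not place the gene under 2-fold. Adding the floor to both signals did bring AT1G02300 under 2-fold, to 0.87. Both loci were thus higher in the NPA array, but only AT4G01610 was well above the floor in both arrays.

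AT4G16190 had a signal of 2764 with NPA and 1412 in the DMSO control. Its log2 ratio of 0.97 stayed just under 2-fold, and passed it at 1.27 after quantile normalization and 1.23 after lowess centring. AT1G02305 had 649 with NPA and 340 in the DMSO control, a log2 ratio of 0.93 that reached 1.01 after lowess centring. AT3G45310 and AT2G21430 had log2 ratios of 0.49 and 0.04. AT1G06260 was at the floor with NPA and at least 1.09-fold lower than in the DMSO control. CP1, AT3G19390 and AT3G54940 were below the floor in both arrays.

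Cystatins are protein inhibitors of papain-like proteases, and some also inhibit legumains. Of 7 listed loci 3 were measured, 1 past 2-fold with the NPA signal higher and 0 with it lower. Beside 3.75% and 2.13% of all measured genes, a count of 1 among 3 says little. The median log2 ratio of the 3 was 0.52, beside -0.03 over all measured genes. It is the value of AT5G05110, whose local spread was 0.48, and was not recomputed under other processing choices. CYS1 had a signal of 637 with NPA and 276 in the DMSO control, a 2.31-fold difference. AT5G05110 and AT5G47550 had log2 ratios of 0.52 and 0.12. All 3 measured cystatin genes had a log2 ratio above 0.

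Aspartic proteases form a further class of vacuolar hydrolases. All 3 listed loci were measured, and 1 passed 2-fold with the NPA signal higher and 0 with it lower. Beside 3.75% and 2.13% of all measured genes, a count of 1 among 3 again says little. The median log2 ratio of the 3 was 0.50, against the -0.03 of all measured genes. It is the value of APA1, just within its local spread of 0.503, and was not recomputed under other processing choices. AT1G62290 had a signal of 139 with NPA and 51.2 in the DMSO control, a 2.72-fold difference. APA1, aspartic proteinase A1, had 1978 with NPA and 1398 in the DMSO control, a log2 ratio of 0.50. AT4G04460 had a log2 ratio of 0.40, from signals close to the floor, at 38.7 with NPA and 29.3 in the DMSO control.

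**Figure D3:**
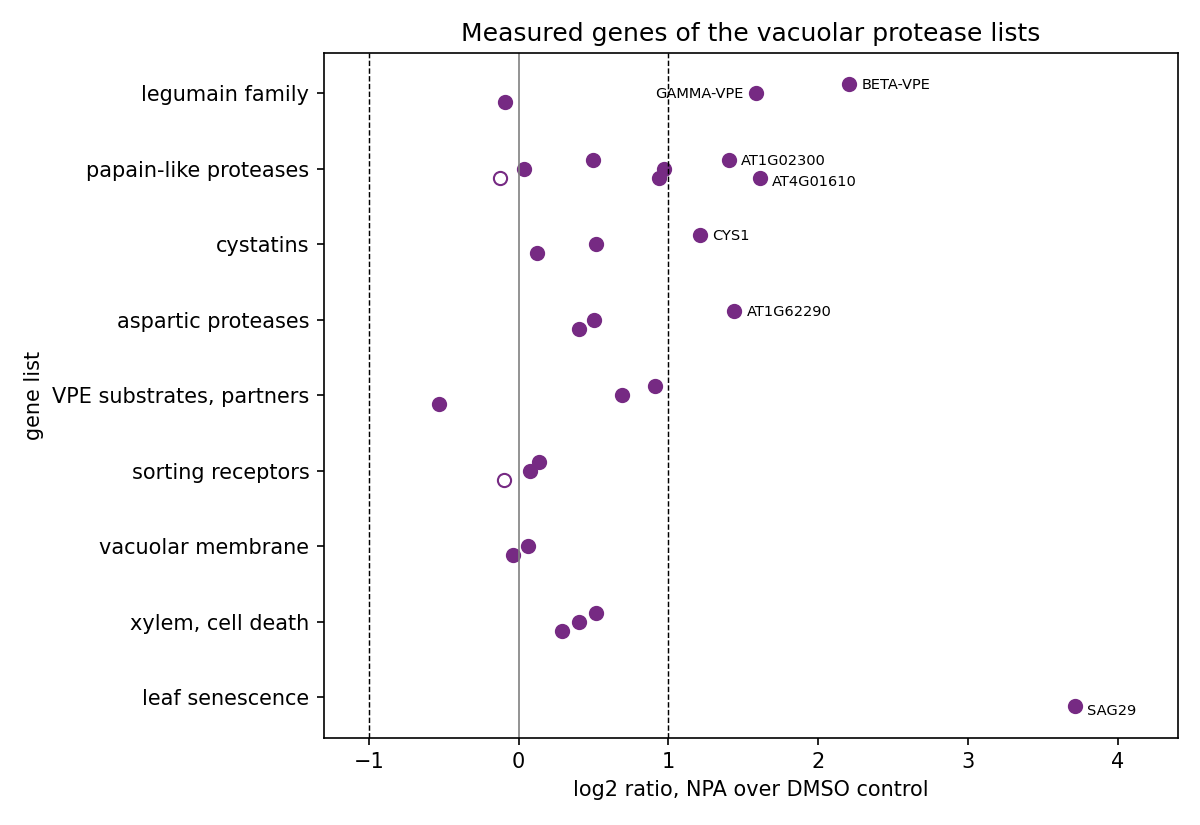
Log2 ratio of NPA over DMSO control for the measured genes of 9 lists, with dashed lines at a 2-fold difference; filled points are above the floor in both arrays and open points are bounds with NPA at the floor, and vertical offsets only separate points. Names are given at 2-fold or beyond, and WRKY53, which has no usable ratio, is left out. Right of 0 lie 6 of 7 papain-like proteases (5 after median centring), 3 of 3 cystatins and 3 of 3 aspartic proteases. The sorting receptor and vacuolar membrane genes lie between -0.09 and 0.14. The lists were chosen with earlier results of these data known, so these counts are a description only.

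Among 5 loci listed as vegetative substrates or partners of vacuolar proteases, 3 were measured and 0 reached 2-fold in either direction. With 3.75% of all measured genes past 2-fold in the higher direction and 2.13% in the lower, a count of 0 among 3 says little. SCPL49, carboxypeptidase Y, a vacuolar serine carboxypeptidase, had a signal of 366 with NPA and 195 in the DMSO control, a log2 ratio of 0.91. SERPIN1, a suicide inhibitor of cysteine proteases, had 188 with NPA and 116 in the DMSO control, a log2 ratio of 0.69. AT1G62660 had 111 with NPA and 160 in the DMSO control, a log2 ratio of -0.53. The signals of SCPL49 and SERPIN1 were higher with NPA by less than the size rule, and that of AT1G62660 was lower.

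Seed storage proteins are the class that BETA-VPE is known to process in seeds. Of 10 listed loci, 2 were named on the array, and both were below the floor in both arrays. PAP85 had a signal of 7.23 with NPA and 17.4 in the DMSO control. AT1G03890 had 9.11 with NPA and 14.8 in the DMSO control.

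Of 11 listed sorting receptors 3 loci were measured, and of 10 listed vacuolar membrane loci 2, and 0 of these 5 reached 2-fold, where 3.75% of all measured genes did in the higher direction and 2.13% in the lower. The sorting receptors had log2 ratios between -0.09 and 0.14, where AT1G22670 was at the floor with NPA and its value is a bound. VHA-A2 and VHA-A3, which encode subunits of the vacuolar proton pump that acidifies the compartment in which VPEs mature, had log2 ratios of -0.04 and 0.06. VHA-A3 had a signal of 448 with NPA and 428 in the DMSO control. Metacaspases, a separate family of cell death proteases, were not analysed here, since 0 of 9 listed loci had a named probe set.

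VPEs are known from senescing leaves and dying cells, so markers of both were read beside them. Of 17 senescence loci 4 were named. SAG29, a sugar transporter of senescing tissue, had a signal of 497 with NPA and 37.9 in the DMSO control. SAG101 and WRKY6 were below the floor in both arrays, and WRKY53, at 28.0 with NPA and 17.6 in the DMSO control, was too close to the floor for a ratio. Of the 2 above the floor in at least 1 array, 1 passed 2-fold with the NPA signal higher and 0 with it lower. Beside 3.75% and 2.13% of all measured genes, a count of 1 among 2 says little. The summed signal of the 4 was 561 with NPA and 90.8 in the DMSO control, of which SAG29 had 497 and 37.9. SAG29 was the only one of the 4 above the floor in both arrays, and the sum includes signals below the floor.

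Of 10 loci of xylem and developmental cell death, 3 were measured and 0 reached 2-fold in either direction, beside 3.75% and 2.13% of all measured genes past it. Their log2 ratios were 0.52 for scpl48, 0.40 for AT4G04460 and 0.29 for AT4G18425. AT4G04460, also listed with the aspartic proteases, and AT4G18425 lay close to the floor in both arrays. The list's summed signal was 336 with NPA and 243 in the DMSO control, of which scpl48 had 249 and 174. The defining xylem proteases of this list were not analysed here. In whole shoots, fewer cells of a type and less RNA per cell cannot be told apart. The part of senescing or xylem cells in the VPE signals was not tested.

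Markers of the labelled tissue were bright in both arrays. The 5 named photosynthesis genes of 15 listed had signals of 2147 to 5105 with NPA and 3671 to 5597 in the DMSO control, and RCA, rubisco activase, had 5105 with NPA and 5597 in the DMSO control. Their log2 ratios were all negative as scaled, at a median of -0.27, but 2 of the 5 were positive after quantile normalization and 3 after lowess centring, where the median was 0.09. Of 6 root loci, 4 were named and 2 measured, PYK10 at 425 with NPA and 609 in the DMSO control and EXPA18 at 28.3 with NPA and 36.8 in the DMSO control. The lists of flower markers and of further embryo markers had no named gene here. The trimmed mean signal was 100 on both arrays, an equality that scaling each array to a common mean would fix. The log2 signals of both arrays correlated at r = 0.923 over 12824 probe sets above both floors, which are not independent replicates. The ratio of 3' to 5' signal of actin was 1.66 with NPA and 2.21 in the DMSO control. That of GAPDH was 0.80 with NPA and 0.89 in the DMSO control, and that of ubiquitin 1.64 and 1.85. An older pair of actin probe sets gave 6.32 with NPA and 3.02 in the DMSO control. Older pairs gave 1.45 with NPA and 2.08 in the DMSO control for GAPDH, and 2.56 and 2.22 for ubiquitin. The part of RNA quality in the VPE ratios was not tested.

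The VPE ratios were recomputed under 9 other processing choices. BETA-VPE ranged from 1.67 to 2.21 and GAMMA-VPE from 1.54 to 1.76 on the log2 scale, and each was at 2-fold or beyond under every one of the 9. Several of these choices could not change the values, since each gene has only 1 probe set and neither lies below the lower floors.

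**Figure D4:**
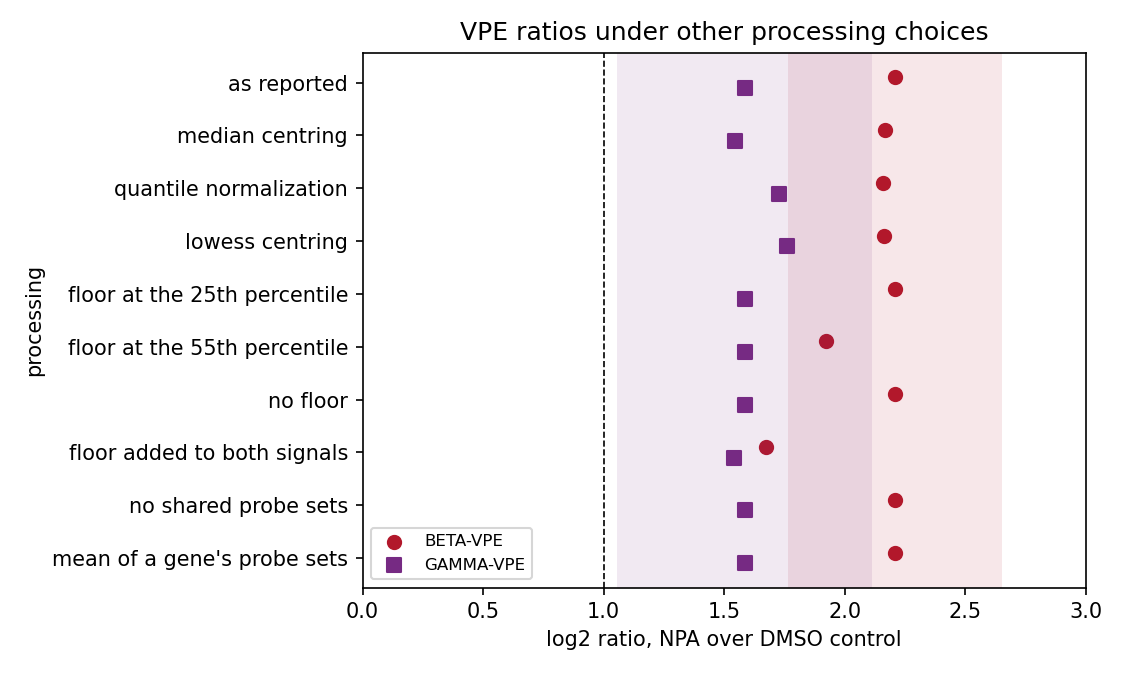
Log2 ratio of NPA over DMSO control of BETA-VPE (circles) and GAMMA-VPE (squares) as reported and under 9 other processing choices, with a dashed line at 2-fold and bands of 1 local spread either side of the reported value. All points lie right of the line, and BETA-VPE leaves its band at 1.67 when the floor is added to both signals.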

How the data were processed

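Biotin-labelled shoot RNA from 1 NPA and 1 DMSO control sample was hybridised to ATH1 arrays, per the labels' protocols. Each probe set has 1 deposited signal intensity per array, not log-transformed, made with MAS5 and GCOS per the submitters' processing notes, which give no versions. No detection calls were used, so a floor on the signals stood in for them.

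Of 22746 probe sets that are not controls, 13513 name 1 gene, 503 several and 8730 (38.4%) none here. Names came from the platform annotation, and 13436 probe sets matched the TAIR10.1 gene table, used for names and gene order only. The brightest single-gene probe set stood for a gene. Signals under an array's 40th percentile were set to it, and genes at least 2-fold apart were called, with no test. A ratio with 1 array at the floor is a bound. The steps were tested on simulated data, with changes planted only in bright genes and with less noise than the local spread here. Changes from a dim control signal, such as that of BETA-VPE, were therefore not covered by that check.

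Named genes were the VPE genes, list members at 2-fold or beyond, and the 3 genes nearest to each VPE gene. Up to 4 members per list were also named, by absolute log2 ratio (markers by signal). For the values under other processing choices, markers were taken by absolute log2 ratio too, so RCA was not among them. Other list members and chromosomal neighbours were added after their values were seen. Members and lists were chosen with earlier results of these data known. A search of the gene table for protease, cystatin, metacaspase and sorting receptor names added 0 loci to the lists. Python 3.11.15, numpy 2.4.6, pandas 2.3.3, statsmodels 0.14.6 and matplotlib 3.10.9 were used.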

Additional observations from a re-analysis of the deposited data

How the results depend on the processing

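The 2 arrays carry no replicate, so the size of these shifts is set against the local spread. For 2 VPE genes, 17 of 18 values under other choices moved by less than it. Several of these 18 could not move, since each gene has 1 probe set and neither lies below the lower floors. BETA-VPE came to 1.67 with the floor added to both signals, where its dim control signal weighs most. Of 309 values of the other named genes, 299 moved by less than the local spread, 10 moved further, and 0 of those at 2-fold changed sign. Many of these 309 likewise equal the reported value, where a choice could not act on the gene. The number of genes at least 2-fold higher with NPA, 291 as reported, was 1102 without a floor, 174 with the floor added, 869 at 1.5-fold and 75 at 3-fold. The number at least 2-fold lower, 165 as reported, was 297 with a 25th percentile floor, 1340 without a floor, 71 with the floor added, 822 at 1.5-fold and 18 at 3-fold. Fewer or more genes past another size rule follow from the rule itself. ALPHA-VPE and DELTA-VPE, unmeasured as reported, had log2 ratios of -1.03 and -0.48 without a floor, from signals that the floor treats as background. No paired analysis was possible because each group has 1 array, and none could be left out.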

Other observations

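The protein-coding genes next to the VPE genes on the chromosome, 2 on each side, were read as well. Beside GAMMA-VPE, AT4G32930 had a signal of 173 with NPA and 183 in the DMSO control, a log2 ratio of -0.08, and AT4G32920 and AT4G32960 had log2 ratios of 0.13 and -0.12. AT4G32950 was at the floor with NPA and had 40.4 in the DMSO control, so its log2 ratio of -0.54 is a bound and a larger difference is possible. Next to BETA-VPE, AT1G62730 had a log2 ratio of 0.39 and AT1G62690 was below the floor in both arrays, while its adjacent genes had no named probe set here.

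Next to ALPHA-VPE, which was below the floor in both arrays, AT2G25950 had a signal of 149 with NPA and 67.6 in the DMSO control, a log2 ratio of 1.14. AT2G25920 had a log2 ratio of 0.25. Next to DELTA-VPE, AT3G20230 had 193 with NPA and 290 in the DMSO control, a log2 ratio of -0.59, and AT3G20200 was at the floor with NPA and 32.2 in the DMSO control.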
